A study of Mus musculus with 18 samples.

Results

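The 32 genes described here are 20 cytosolic aminoacyl-tRNA synthetase genes and 12 genes of the stress pathway that runs through the transcription factor ATF4. They were taken from a fixed list of gene names and are 32 of the 37991 genes in the count files. Of the 12, 6 are regulators (Atf4, Atf5, Ddit3, Trib3, Chac1 and Sesn2) and 6 are enzymes that make amino acids or move one-carbon units (Asns, Psat1, Phgdh, Psph, Shmt2 and Mthfd2). Of the synthetases, 8 belong to the multisynthetase complex (Dars, Eprs, Iars, Kars, Lars, Mars, Qars and Rars) and 12 act outside it. Each aminoacyl-tRNA synthetase joins a tRNA to its own amino acid, the step that supplies charged tRNA to the ribosome. When amino acids run short or unfolded protein builds up, kinases phosphorylate the translation initiation factor eIF2α, most translation slows, and the Atf4 mRNA is translated more, after which ATF4 raises transcription of genes for amino acid synthesis, amino acid import and tRNA charging. A T cell that meets Ag enlarges and makes much more protein before it divides, so this machinery has been studied in T cell activation as well as in stress.

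RNA-seq was measured in CD4+ T cells enriched with magnetic beads from the spleens of Tg4-H2u mice, male and female and aged 6 to 12 weeks, which carry a transgenic TCR for a myelin basic protein peptide. Mice were either tolerized with repeated, increasing subcutaneous doses of the 4Y peptide (T) or given PBS on the same schedule (N). Cells were taken without Ag (N0 and T0), 2 h after a last injection of the peptide into the mouse (NAg and TAg), or after 2 h in culture with the phorbol ester PMA and calcium ionophore, which stimulate T cells without engaging the TCR (NPI and TPI), with 3 libraries in each of 6 groups. All mice carry the transgene, the N cells are predominantly rather than purely naive, and no library of cells cultured without PMA and ionophore (PI) was analysed here, so that the effects of PI and of culture cannot be told apart.

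Total counts ranged from 10758571 to 24119489 per library, and all 32 genes were above the limit on low counts used for testing. The 32 genes together took 0.183% to 0.190% of all counts in N0, 0.184% to 0.188% in T0, 0.452% to 0.50% in NAg, 0.445% to 0.457% in TAg, 0.165% to 0.174% in NPI and 0.153% to 0.162% in TPI. The 6 T cell marker genes listed (Cd3e, Cd3d, Cd3g, Cd4, Lck and Cd5) were detected in every library, and their summed normalized count was lower after Ag, at 24472 to 25613 in N0 and 13223 to 14369 in NAg, and at 21244 to 25268 in T0 and 16935 to 19647 in TAg, beside 23934 to 27193 in NPI and 27735 to 30549 in TPI. The 9 neutrophil marker genes listed moved with the tolerized state, and their summed normalized count was 74.4 to 183 in N0 and 1756 to 3139 in T0, 137 to 395 in NAg and 2298 to 4132 in TAg, and 63.7 to 172 in NPI and 396 to 673 in TPI. Summed erythroid markers reached 2273 in the first T0 library and 1327 in the third TAg library, against at most 396 elsewhere, and summed macrophage markers reached 2034 in the first NAg library against at most 623 elsewhere. The sum of 2 CD8 marker genes was 210 to 260 in N0 and 81.5 to 126 in T0, 170 to 197 in NPI and 52.5 to 70.4 in TPI, and overlapped between NAg and TAg. Summed B cell markers were 1628 in the first N0 library against 303 and 395 in the others, and 2275 in the first T0 library against 852 and 480. The part of these cells in the differences between T and N was not tested for the CD8 and B cell markers. Reads of Y-linked genes exceeded 1000 in all NPI and TPI libraries, in 2 of the T0 libraries and in 1 TAg library, and numbered at most 15 in each N0 and NAg library, so that in naive cells the sex of the mice and PI treatment cannot be told apart. These reads were also uneven between T0 and N0 and between TAg and NAg.

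Promoter sequences of 25 of the 32 genes were matched in RefSeq on GRCm38.p6, as the 250 bases before the transcription start. Cars, Hars, Lars, Nars, Rars, Vars and Wars had none in that table. Both strands were searched for the C/EBP-ATF response element, written TGATGNAA, to which ATF4 dimers can bind, and for the E-box CACGTG, to which MYC among other factors can bind. The first motif was present in 5 of the 25 genes, which is 20%, against 3.45% of 32851 RefSeq promoters of the same length. Its 5 carriers were Aars, Gars, Tars, Asns and Chac1. The E-box was present in Aars, Farsb and Iars, 3 of 25 or 12%, against 6.02% of all promoters. A match of these letters describes the sequence and does not show that a factor binds there. The promoters of Asns, Chac1, Tars and Aars are shown as examples of carriers of the first motif from each role, Aars also because it holds both, and that of Qars because this synthetase departed from its group. Capitals mark the matches, every sequence runs 5′ to 3′ on the strand of its gene, and the motif TGATGNAA reads TTGCATCA where it lies on the other strand.
The Asns promoter is chr6:7693210-7693459 on the minus strand, and its match spans positions -23 to -16, counted back from the start.
Asns: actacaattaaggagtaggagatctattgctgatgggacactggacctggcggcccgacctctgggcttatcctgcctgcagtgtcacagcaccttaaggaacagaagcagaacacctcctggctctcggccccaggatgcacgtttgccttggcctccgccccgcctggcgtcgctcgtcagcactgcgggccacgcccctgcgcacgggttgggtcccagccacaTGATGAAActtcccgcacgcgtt
The Chac1 promoter is chr2:119350992-119351241 on the plus strand, with its match at -193 to -186.
Chac1: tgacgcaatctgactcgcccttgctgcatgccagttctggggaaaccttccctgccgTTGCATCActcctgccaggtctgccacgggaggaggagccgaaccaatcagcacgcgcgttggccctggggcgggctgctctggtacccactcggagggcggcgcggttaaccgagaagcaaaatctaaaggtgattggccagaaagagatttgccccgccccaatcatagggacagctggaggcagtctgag
The Tars promoter is chr15:11399659-11399908 on the minus strand, with its match at -15 to -8.
Tars: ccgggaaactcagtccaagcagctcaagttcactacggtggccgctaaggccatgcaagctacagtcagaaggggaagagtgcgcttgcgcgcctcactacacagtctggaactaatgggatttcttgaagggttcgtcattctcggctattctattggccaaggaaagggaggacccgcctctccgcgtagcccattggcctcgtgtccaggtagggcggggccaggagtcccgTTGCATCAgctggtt
The Aars promoter is chr8:111033592-111033841 on the plus strand and holds the E-box at -146 to -141 and the other motif at -112 to -105.
Aars: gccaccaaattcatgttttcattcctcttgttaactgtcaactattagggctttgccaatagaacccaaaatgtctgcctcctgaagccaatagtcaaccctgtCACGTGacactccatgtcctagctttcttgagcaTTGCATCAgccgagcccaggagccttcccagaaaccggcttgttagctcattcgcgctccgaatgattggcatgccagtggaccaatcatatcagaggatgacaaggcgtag
The Qars promoter is chr9:108507755-108508004 on the plus strand and has neither run of letters in this window.
Qars: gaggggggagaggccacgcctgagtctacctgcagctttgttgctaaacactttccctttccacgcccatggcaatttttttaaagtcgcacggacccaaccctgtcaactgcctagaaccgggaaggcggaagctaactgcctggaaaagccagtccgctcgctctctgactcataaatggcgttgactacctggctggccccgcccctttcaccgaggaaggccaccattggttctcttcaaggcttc

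The first question was how these genes respond in naive cells to Ag in the mouse. Of the 20 synthetases, 19 rose in NAg compared with N0 and 1, Qars, fell, with a median log2 fold change of 1.78. Among the regulators 4 rose, 1 fell and 1 did not pass the test, and among the enzymes 5 rose and 1 fell. Over all tested genes 32.1% were called higher and 33.4% lower in this comparison, with a median log2 fold change of 0.00, whereas 28 of the 32 genes described here were called higher and 3 lower. A call means an adjusted p under 0.05 in edgeR's quasi-likelihood test, adjusted by the Benjamini-Hochberg method over 17240 tested genes. In these bulk samples, a smaller share of cells of a type and less RNA per cell cannot be told apart. The scaling matters for small changes, because scaling by total counts alone would move the median of all tested genes to -0.42 in NAg:N0, -0.40 in TAg:T0, -0.65 in NPI:N0 and -0.92 in TPI:T0, against 0.00, -0.05, -0.06 and -0.10 with edgeR's TMM scaling used here.

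**Figure D1:**
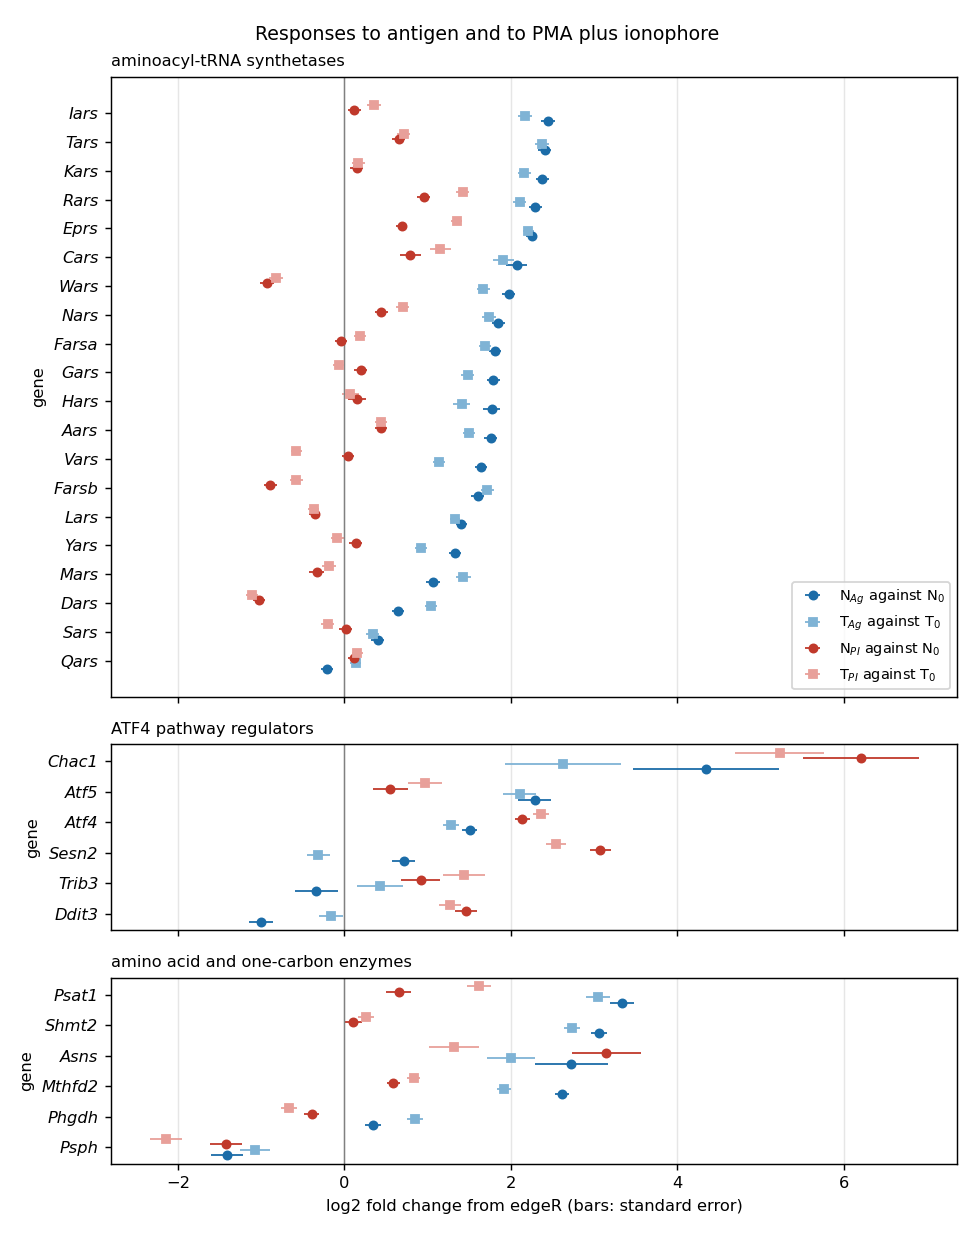
Log2 fold changes (horizontal axis) of each gene (vertical axis, in 3 panels by role) after Ag in naive (dark blue circles) and tolerized cells (light blue squares) and after PI in naive (red circles) and tolerized cells (pink squares), with bars for standard errors of the edgeR model. In the synthetase panel the blue points lie to the right of 0 except for Qars in naive cells, while the red points scatter around 0, and in the regulator panel the red points of Atf4, Sesn2, Trib3, Ddit3 and Chac1 lie to the right of the blue ones.

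Rises of at least 2-fold after Ag were found for 17 of the 20 synthetases in naive cells. The largest were those of Iars (log2 fold change 2.45 ± 0.08, SE), Tars (2.41 ± 0.08), Kars (2.38 ± 0.08), Rars (2.29 ± 0.08) and Eprs (2.25 ± 0.07), for isoleucine, threonine, lysine, arginine, and both glutamate and proline. Normalized counts of Tars, counts scaled to a common library size, were 581, 563 and 547 in the N0 libraries and 2692, 3171 and 3116 in the NAg libraries, so that the groups were far apart. Wars, for tryptophan, went from 560, 503 and 479 in N0 to 1957, 2072 and 2040 in NAg (adjusted p = 7.12e-17). Farsb, which encodes the beta subunit of the phenylalanine enzyme, went from 661, 700 and 669 to 1888, 2185 and 2098, and Farsa, for its alpha subunit, rose by a log2 of 1.81 ± 0.07 beside 1.60 ± 0.08 for Farsb. The synthetases of the multisynthetase complex had a median log2 fold change of 1.83 (7 of 8 higher) and those outside it 1.78 (12 of 12 higher), and this difference was not tested.

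The smallest responses were those of Qars, Sars and Dars. Qars, the glutamine enzyme, gave 1246, 1188 and 1179 normalized counts in N0 and 1020, 1007 and 1101 in NAg, a fall that left the groups without overlap but small in size (log2 fold change -0.21 ± 0.07, adjusted p = 0.00878). With upper-quartile scaling, or with scores of the erythroid and myeloid markers in the model, this fall of Qars was not called. Each score is the mean log2 normalized count of its marker genes in a library, not the summed count given above. Sars, for serine, rose by a log2 of 0.40 ± 0.08, a rise that scaling by total counts alone removes, and Dars, for aspartate, by 0.65 ± 0.07. In Dars the N0 libraries had 1024, 1048 and 1114 normalized counts and the NAg libraries 1613, 1646 and 1726. As a description of how alike the patterns were, the Pearson r of each synthetase with the median of the others over the 18 libraries was between 0.907 and 0.994 for 14 of the 20, and was lowest for Qars (-0.393), Dars (0.759) and Sars (0.798). The libraries of a group share their condition, so these r values have far fewer independent points than libraries.

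Per kilobase of annotated exon, the order of the synthetase mRNAs was different after Ag. In N0 the highest mean levels were those of Dars (424 normalized counts per kb), Gars (362) and Nars (332), and the lowest those of Aars (84.8), Cars (103) and Yars (109). In NAg the highest were Kars (1461), Iars (1445) and Gars (1251), where Kars and Iars differed by less than the SDs of their counts, and the lowest was Qars (168). Among the other genes Atf4 stood above every synthetase, at 760 in N0 and 2157 in NAg, and in NAg so did Shmt2 (1598). Exon lengths sum all annotated exons of a gene, whether or not these cells use them. Aars, Cars, Farsb, Hars, Mars, Vars, Yars, Atf5, Ddit3 and Shmt2 share exon bases with a neighbouring gene, so that their values are uncertain. Mars (chr10:126733277-126748842, minus strand of NCBIM37) and Ddit3 (chr10:126727830-126733344, plus strand) share 68 such bases with each other.

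In tolerized cells, too, most of these genes were higher after Ag. In TAg compared with T0, 19 of the 20 synthetases rose and 0 fell, with a median log2 fold change of 1.58, and Qars did not pass the test (log2 fold change 0.14, adjusted p = 0.0843). Including the other roles, 27 of 32 rose and 1 fell, where 29.9% of all tested genes were called higher and 29.8% lower. Tars showed the largest synthetase rise, from 503, 511 and 531 normalized counts in T0 to 2565, 2762 and 2698 in TAg (log2 fold change 2.38 ± 0.08). In Dars the T0 libraries had 911, 912 and 965 and the TAg libraries 1890, 1986 and 1855, and in Qars the T0 libraries had 1068, 1045 and 1179 and the TAg libraries 1203, 1239 and 1175, which overlap. When the first T0 library was left out, 2 genes in place of 1 were called lower in TAg:T0.

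Among the enzymes, the largest responses to Ag were those of Psat1 and Shmt2. Psat1, the aminotransferase of serine synthesis, went from 293, 213 and 218 normalized counts in N0 to 2180, 2461 and 2676 in NAg, a 10.1-fold rise (log2 fold change 3.33 ± 0.15), and from 219, 277 and 284 in T0 to 2125, 2140 and 2199 in TAg (3.05 ± 0.14). Shmt2, which takes a one-carbon unit from serine in mitochondria, went from 486, 408 and 412 to 3194, 3857 and 3877 in naive cells (3.06 ± 0.10) and from 430, 363 and 446 to 2915, 2672 and 2658 in tolerized cells (2.73 ± 0.10). Every Ag library of both genes was several times above every N0 and T0 library. Mthfd2, the mitochondrial folate enzyme downstream of Shmt2, rose by a log2 of 2.61 ± 0.08 in naive and 1.92 ± 0.08 in tolerized cells. The estimates for Asns were slightly larger, with wide errors (2.73 ± 0.44 and 2.0 ± 0.29).

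The 3 enzymes of serine synthesis did not move together. Phgdh, the first of them, rose by only 0.35 ± 0.09 on the log2 scale in naive cells, a rise that was absent with total-count scaling, and by 0.85 ± 0.09 in tolerized cells. Psph, the last of them, fell, from 150, 126 and 121 normalized counts in N0 to 46.7, 61.1 and 41.8 in NAg (log2 fold change -1.41 ± 0.19) and from 154, 142 and 175 in T0 to 59.4, 96.6 and 68.6 in TAg (-1.07 ± 0.18). In both pairs the groups were separate, and Psph was the enzyme least like the median of its group (Pearson r = -0.453 over 18 libraries, against 0.906 for Shmt2). Asns, which makes asparagine, was rare in naive cells, with 5.94, 2.09 and 6.94 normalized counts in N0 and 52.7, 21.1 and 28.6 in NAg, and higher in tolerized cells, with 43.3, 15.9 and 27.8 in T0 and 117, 114 and 119 in TAg. Its log2 fold changes after Ag were 2.73 ± 0.44 and 2.0 ± 0.29, with wide errors at these counts.

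The regulators were divided in their response to Ag. Atf4 itself went from 1110, 1463 and 1356 normalized counts in N0 to 3525, 3521 and 4111 in NAg (log2 fold change 1.51 ± 0.09) and from 1031, 961 and 1256 in T0 to 2639, 2621 and 2650 in TAg (1.28 ± 0.09). Atf5, a related factor that is also controlled by translation, went from 40.6, 29.2 and 25.8 to 125, 172 and 173 in naive cells and from 29.2, 30.0 and 31.6 to 134, 130 and 128 in tolerized cells. Both factors were higher in every Ag library than in any N0 or T0 library. Ddit3, which encodes the stress factor CHOP, fell in naive cells, from 159, 139 and 130 to 70.7, 63.4 and 79.2 (log2 fold change -1.0 ± 0.15). In tolerized cells Ddit3 had 111, 112 and 103 normalized counts in T0 and 106, 113 and 73.8 in TAg, which overlap, and its log2 fold change of -0.16 did not pass the test and turned to 0.01 without the third TAg library.

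Trib3, a pseudokinase induced by ATF4 and CHOP, did not pass the test after Ag in either state. Its normalized counts were 22.8, 42.8 and 32.7 in N0, 27.6, 25.8 and 24.2 in NAg, 16.8, 15.9 and 18.2 in T0, and 18.7, 28.6 and 21.5 in TAg. Sesn2, an inhibitor of mTORC1 signaling, rose in naive cells from 65.4, 50.1 and 68.4 to 95.9, 97.5 and 109 (log2 fold change 0.71 ± 0.14), and in tolerized cells had 80.5, 89.2 and 81.5 in T0 and 66.1, 65.6 and 70.7 in TAg (log2 fold change -0.31, adjusted p = 0.0556). Chac1, an enzyme that breaks down glutathione, was almost undetected without stimulation, with 1 read in all N0 libraries and 4 reads in all T0 libraries. There were 24 Chac1 reads in NAg, 27.5 times the N0 level after scaling (95% counting interval 4.49 to 1132), and 22 reads in TAg, 6.68 times the T0 level (2.27 to 26.6). These intervals cover counting error only.

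Treatment with PI gave another pattern, in which the synthetases were divided and the regulators rose together. In NPI compared with N0, 7 synthetases rose, 5 fell and 8 did not pass the test (median log2 fold change 0.13), while all 6 regulators rose (median 1.80) and the enzymes were divided, with 3 higher and 2 lower. That makes 16 of 32 genes higher and 7 lower, where 28.6% of all tested genes were called higher and 32.7% lower. In TPI compared with T0, 9 synthetases rose and 6 fell (median 0.11), the 6 regulators again rose (median 1.90), and 4 enzymes rose and 2 fell. With total-count scaling, and with marker scores in the model, Atf5 and Trib3 were not called in NPI:N0 and Atf5 was not called in TPI:T0. Of the 32 genes 19 were higher and 8 lower, against 32% and 36.3% of all tested genes. These splits depend on the scaling, since with total counts alone 6 genes were higher and 17 lower in NPI:N0 and 9 higher and 18 lower in TPI:T0.

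**Figure D2:**
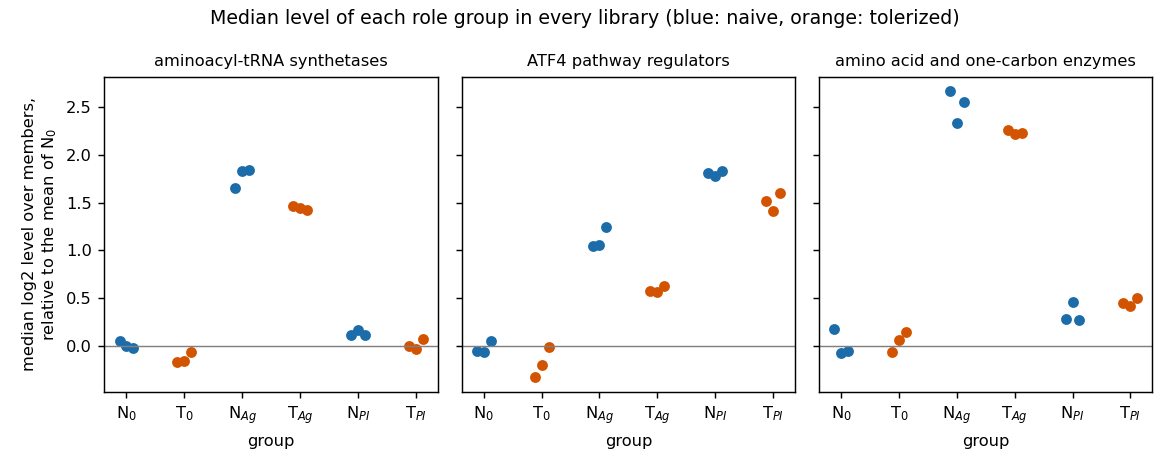
Median log2 normalized count over the genes of each role, relative to the mean of the N0 libraries (vertical axis), in each of the 18 libraries (points, blue for naive and orange for tolerized cells) by group (horizontal axis). The synthetases and enzymes are highest in NAg and TAg, whereas the regulators are highest in NPI and TPI. Under PI the mean over libraries is 0.13 and 0.01 for the synthetases, with 2 of the 3 TPI points below 0, and 0.33 and 0.45 for the enzymes with the TMM scaling shown, and all of these means are below 0 with total-count scaling.

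Measured as the median over its genes in each library, relative to N0, the synthetase group stood at 1.78 ± 0.11 (SD, n = 3) in NAg and 1.45 ± 0.02 in TAg on the log2 scale, and at 0.13 ± 0.03 in NPI and 0.01 ± 0.05 in TPI. With total-count scaling the PI values became -0.45 in NPI and -0.68 in TPI, below N0, whereas the Ag values of 1.37 and 1.22 stayed above it. The regulator group stood at 1.11 ± 0.11 in NAg and 0.58 ± 0.03 in TAg, and at 1.81 ± 0.02 in NPI and 1.51 ± 0.09 in TPI. The enzyme group stood at 2.52 ± 0.17, 2.24 ± 0.03, 0.33 ± 0.11 and 0.45 ± 0.04 in the same order.

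Atf4 was the most abundant regulator under PI, with 5647, 5722 and 5959 normalized counts in NPI and 5640, 5540 and 5548 in TPI, above all NAg and TAg libraries. Its log2 fold change was 2.14 ± 0.10 in naive and 2.36 ± 0.10 in tolerized cells. Sesn2 had 482, 582 and 491 normalized counts in NPI and 471, 461 and 538 in TPI (log2 fold changes 3.07 ± 0.13 and 2.55 ± 0.12). Ddit3, lower after Ag in naive cells, rose under PI to 403, 385 and 395 in naive cells (1.46 ± 0.13) and to 269, 238 and 278 in tolerized cells (1.27 ± 0.13). Trib3 reached 53.0, 73.7 and 59.4 in NPI and 52.5, 45.0 and 40.7 in TPI. Chac1 had 102 reads in NPI, 99.6 times the N0 level (17.5 to 3970), and 183 reads in TPI, 42.9 times the T0 level (16.5 to 159).

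Atf5 was the exception among the regulators, with 56.2, 46.2 and 39.0 normalized counts in NPI, which overlap those of N0, and 57.4, 50.5 and 69.0 in TPI. Its rise of 0.55 ± 0.21 in NPI:N0 (adjusted p = 0.0274) was not called when the second or the third N0 library or the first NPI library was left out (0.45, 0.38 and 0.42), and was -0.01 with marker scores as covariates and -0.02 with total-count scaling. Over the 18 libraries Atf5 had a Pearson r of 0.088 with the median of the other regulators, the lowest of the 6.

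Among the synthetases under PI, Rars and Eprs rose most in tolerized cells, by a log2 of 1.42 ± 0.08 and 1.35 ± 0.07, and Rars (0.95 ± 0.08) and Cars (0.80 ± 0.12) most in naive cells. Dars fell, to 494, 499 and 568 normalized counts in NPI and 410, 443 and 436 in TPI (log2 fold changes -1.03 ± 0.07 and -1.11 ± 0.07). Wars fell to 250, 278 and 282 in NPI and 321, 302 and 288 in TPI (-0.93 ± 0.08 and -0.82 ± 0.08), and Farsb to 361, 353 and 383 and to 422, 424 and 374 (-0.89 ± 0.08 and -0.57 ± 0.08). In each of these 3 genes the PI libraries lay below every library of the same state without stimulation. Qars had 1336, 1244 and 1331 in NPI, which overlap N0, and 1231, 1176 and 1256 in TPI, which overlap T0 although this comparison passed the test (log2 fold change 0.15 ± 0.07, adjusted p = 0.0426), a value that became -0.64 with total-count scaling. This small rise of Qars was not called without the first or the second T0 library (0.10 and 0.09) or the third TPI library (0.13).

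Of the enzymes, Asns rose under PI, to 40.6, 57.2 and 39.9 normalized counts in NPI (log2 fold change 3.15 ± 0.42) and 70.3, 80.1 and 68.2 in TPI (1.32 ± 0.30). Psat1 reached 374, 437 and 333 in NPI and 957, 728 and 714 in TPI (0.65 ± 0.15 and 1.62 ± 0.14). Psph fell to 52.0, 46.2 and 50.1 in NPI and 28.3, 36.2 and 41.4 in TPI (-1.42 ± 0.19 and -2.15 ± 0.19), so that it was lower after either stimulus. Shmt2 stayed close to its level without stimulation, at 454, 506 and 452 in NPI and 482, 459 and 538 in TPI, where only TPI:T0 passed the test (0.26 ± 0.10), and this small rise became -0.54 with total-count scaling.

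**Figure D3:**
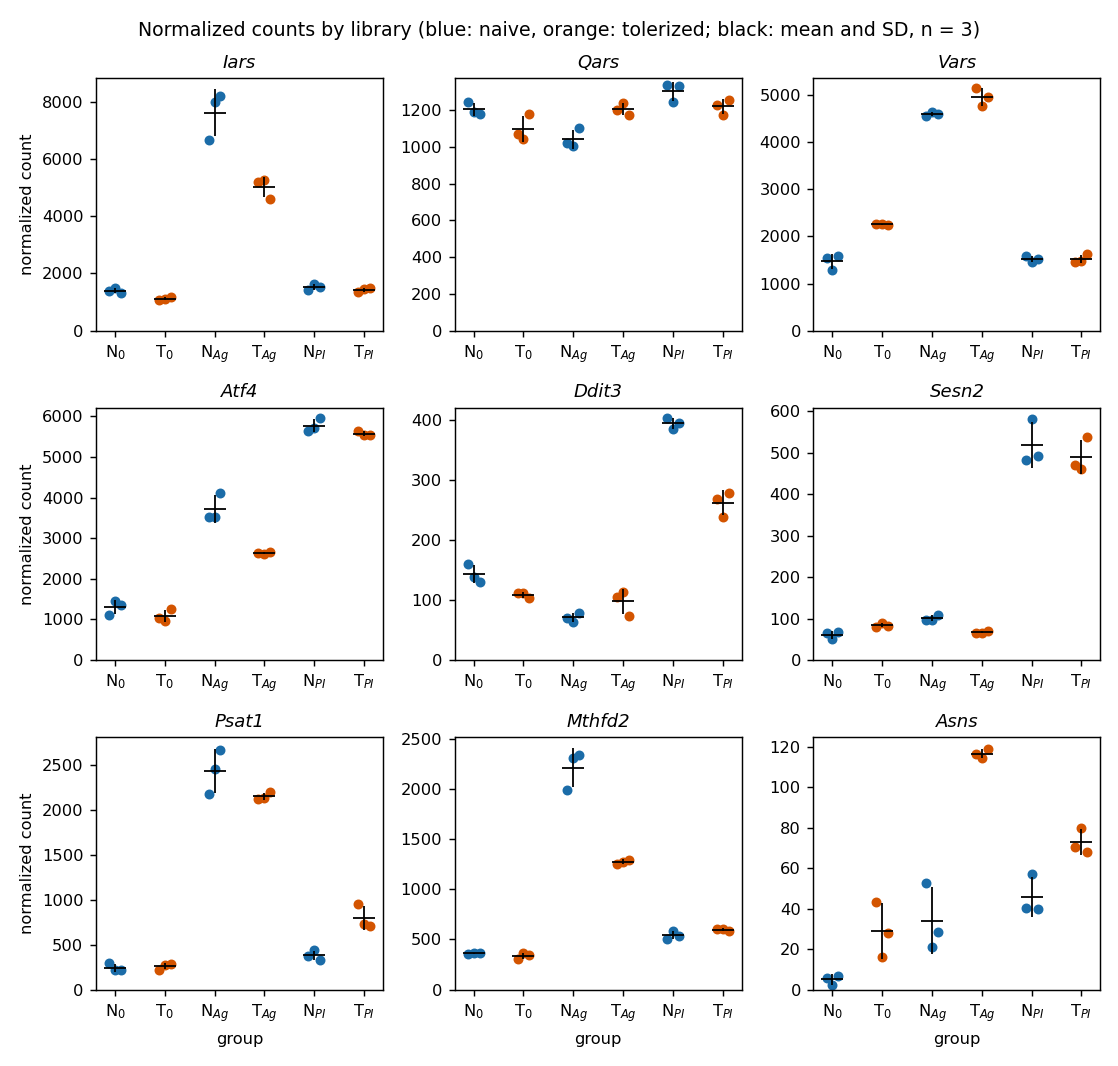
Normalized counts (vertical axes, starting at 0) of 9 genes in every library (points, blue for naive and orange for tolerized cells) by group (horizontal axis), with black bars for the mean and SD of 3 libraries. Iars, Psat1 and Mthfd2 are highest in the Ag groups, Atf4, Ddit3 and Sesn2 in the PI groups, Qars varies little, Vars is higher in T0 than in N0, and Asns is highest in TAg.

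Compared directly, 24 of the 32 genes were lower in NPI than in NAg and 6 higher, where 31% of all tested genes were called lower and 33.5% higher. These were 19 synthetases lower and 1, Qars, higher, 5 regulators higher and 1, Atf5, lower, and 4 enzymes lower. In tolerized cells 26 genes were lower in TPI than in TAg and 5 higher, against 32.3% and 31.5% of all tested genes, and the 5 higher were the regulators other than Atf5. The genes furthest below their NAg level in NPI were Shmt2 (log2 fold change -2.95 ± 0.10), Wars (-2.90 ± 0.08), Psat1 (-2.68 ± 0.14) and Farsb (-2.49 ± 0.08). Furthest above it were Ddit3 (2.47 ± 0.14) and Sesn2 (2.36 ± 0.12). Wars, with 1733, 1594 and 1785 normalized counts in TAg, and Farsb, with 1929, 2034 and 2010, were also furthest below it in TPI, beside Shmt2 (-2.49 ± 0.08, -2.29 ± 0.08 and -2.48 ± 0.10). The stimuli also differ in place, mouse against culture, and in agent.

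The second question was whether tolerized cells differ from naive cells. Without stimulation 13 of these genes did. In T0 compared with N0, 3 genes were higher and 10 lower, where 8.42% of all tested genes were called higher and 12% lower, and the median log2 fold change of the synthetases was -0.13. The number higher was near its share of all genes. The 3 higher were Asns (2.50 ± 0.44), Vars (0.62 ± 0.07) and Sesn2 (0.45 ± 0.14). The 10 lower were Cars, Dars, Farsa, Iars, Mars, Nars, Atf4, Ddit3, Trib3 and Phgdh, from -0.19 for Dars to -0.94 for Trib3, each less than 2-fold. All 3 T0 libraries of Asns lay above those of N0, by counts of 15.9 to 43.3 against 2.09 to 6.94. All 9 neutrophil markers were higher in T0 than in N0. With the erythroid and myeloid marker scores in the model 0 genes were called in either direction, with log2 fold changes of 0.74 for Asns and 0.66 for Vars. Summed neutrophil markers did not overlap between T0 and N0, so that this fit cannot tell these cells apart from the tolerized state. Leaving out the second N0 library, the first T0 library or the second T0 library gave 5 lower calls in place of 10. Y-linked reads exceeded 1000 in 2 T0 libraries and in 0 N0 libraries. With these reads as a covariate 2 genes were called lower in place of 10, and the part of sex was not tested further.

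**Figure D4:**
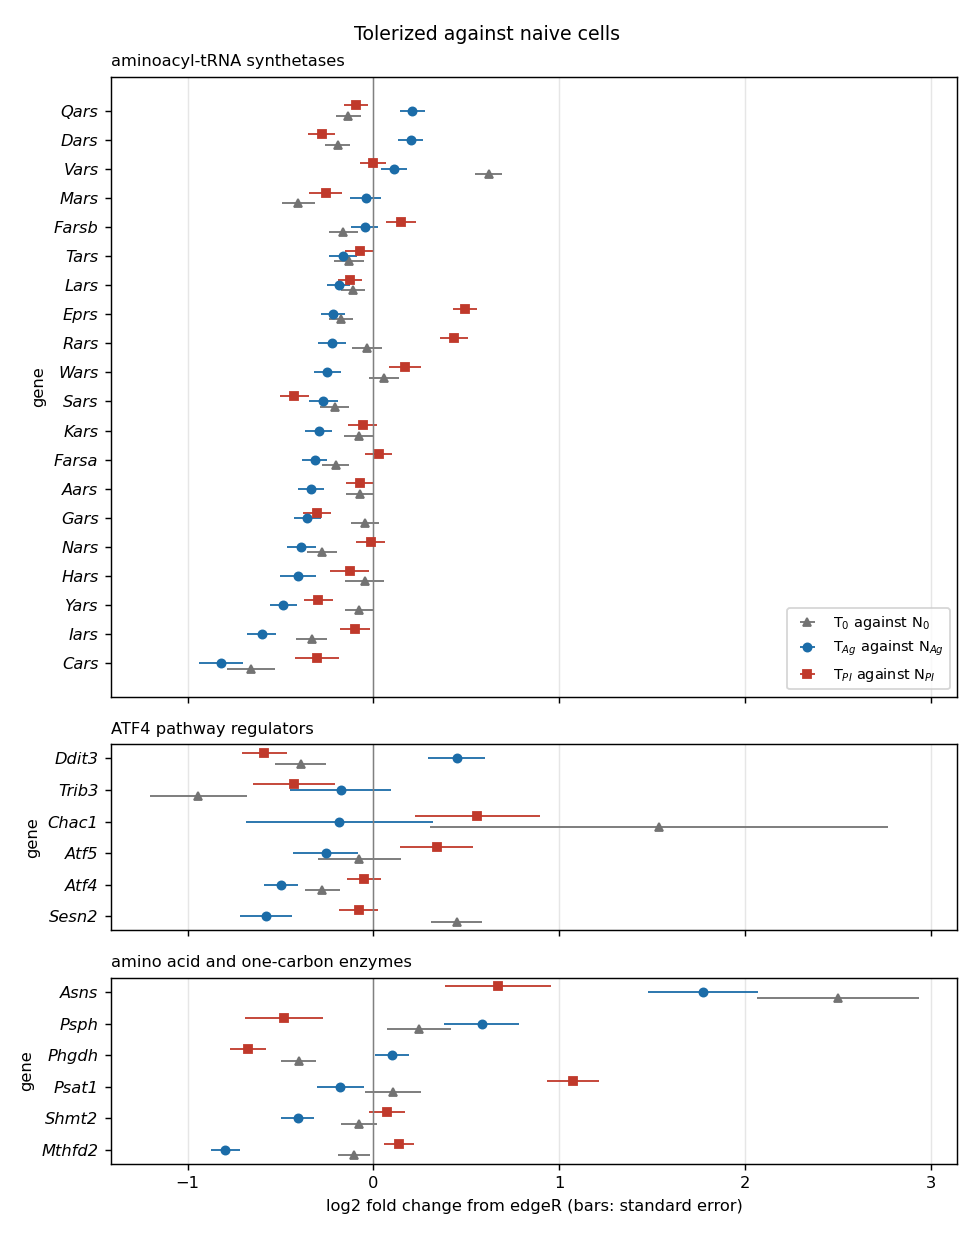
Log2 fold changes of tolerized against naive cells (horizontal axis) for each gene (vertical axis, in 3 panels by role) without stimulation (gray triangles), after Ag (blue circles) and under PI (red squares), with bars for standard errors of the edgeR model. Most synthetase points lie close to 0, with the blue points mostly to its left, and Asns lies furthest to the right without stimulation and after Ag, and Psat1 under PI.

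After Ag, 18 genes were lower in TAg than in NAg and 5 higher, where 18.5% of all tested genes were called lower and 20.9% higher. The number higher was not above its share of all genes. Of the synthetases 14 were lower, 2 (Dars and Qars) higher and 4 not past the test, with a median log2 fold change of -0.26. Furthest below NAg were Cars (-0.82 ± 0.12), Mthfd2 (-0.80 ± 0.08) and Iars (-0.60 ± 0.08), and Sesn2 (-0.58 ± 0.14) and Atf4 (-0.50 ± 0.09) were lower as well. The 5 higher genes were Asns (1.77 ± 0.30), Psph (0.58 ± 0.20), Ddit3 (0.45 ± 0.15), Qars (0.21 ± 0.07) and Dars (0.20 ± 0.07). In Mthfd2 the groups were 2212 ± 195 normalized counts (SD, n = 3) in NAg and 1274 ± 22.7 in TAg, and in Iars 7617 ± 825 and 5020 ± 358. All 9 neutrophil markers were higher in TAg and 6 of 7 macrophage markers lower, and the part of these cells in the differences was not tested apart from a fit with marker scores as covariates. In that fit 0 genes were called higher and 7 lower, namely Cars, Gars, Iars, Yars, Atf4, Sesn2 and Mthfd2. Summed neutrophil markers did not overlap between TAg and NAg either, so that the fit cannot tell these cells apart from the tolerized state. The higher calls numbered 3 without the first NAg library, 2 without the second NAg library and 1 without the second TAg library.

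Under PI, 3 genes were higher in TPI than in NPI and 7 lower, where 18.2% of all tested genes were called higher and 19.7% lower. The number lower was near its share and the number higher below it, so these counts are not a result about this set of genes. The higher genes were Psat1 (1.07 ± 0.14), Eprs (0.49 ± 0.07) and Rars (0.43 ± 0.08). The lower genes were Dars, Gars, Mars, Sars, Yars, Ddit3 and Phgdh, of which Phgdh (-0.67 ± 0.10) and Ddit3 (-0.59 ± 0.12) differed most. For Atf4 the log2 difference was -0.05 and did not pass the test (adjusted p = 0.71). Of the neutrophil markers 6 of 9 were higher in TPI, and with marker scores as covariates 1 gene was called lower. Their sums did not overlap between TPI and NPI, so that these cells and the tolerized state cannot be told apart in that fit.

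Whether the response itself differed between the states was tested as an interaction, the log2 response of tolerized cells minus that of naive cells. For Ag, 5 genes had a larger and 6 a smaller value in tolerized cells, where 14.6% of all tested genes were called above 0 and 7.09% below. The number above 0 was near its share of all genes. Sesn2 differed most, by -1.03 ± 0.20, with log2 fold changes of 0.71 in naive and -0.31 in tolerized cells, followed by Ddit3 (0.84 ± 0.21), which fell in naive cells and did not pass the test in tolerized cells, and by Mthfd2 (-0.69 ± 0.11). Among the synthetases Dars, Mars and Qars had a larger value and Gars, Vars, Wars and Yars a smaller one, and with upper-quartile scaling 0 synthetases were called above 0 and 11 below. Vars had 1471 ± 155 normalized counts (SD, n = 3) in N0, 2260 ± 11.6 in T0, 4607 ± 45.5 in NAg and 4970 ± 191 in TAg, so that its smaller response (-0.51 ± 0.10) went with a higher starting level. Over all 32 genes 1 was called above 0 and 15 below with upper-quartile scaling, and with DESeq2 10 genes were called below.

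For PI, the interaction was above 0 for 3 genes and below 0 for 3, where 12.7% of all tested genes were called above 0 and 7.52% below. Both numbers were near these shares. Those above 0 were Psat1 (0.97 ± 0.20), Eprs (0.66 ± 0.09) and Rars (0.47 ± 0.11), and those below 0 Asns (-1.83 ± 0.53), Vars (-0.62 ± 0.10) and Sesn2 (-0.53 ± 0.17). Vars did not pass the test under PI in naive cells (log2 fold change 0.05) and fell in tolerized cells (-0.57). For Asns the N0 counts were near 0, and the call was lost without the second N0 library (-1.46) or the first T0 library (-1.40). With only the 4 groups concerned in the fit, 7 genes were called below 0, and leaving out single libraries moved the number above 0 to between 3 and 6 and the number below 0 to between 1 and 5. The larger numbers above 0 were reached without the first N0 library (5) and the third T0 library (6), and those below 0 were 1 without the second N0 library or the first T0 library and 5 without the third TPI library.

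The machinery around these genes was followed in lists of related genes. Of all tested genes 32.1% were called higher and 33.4% lower in NAg:N0, and 29.9% and 29.8% in TAg:T0. Under PI the shares were 28.6% and 32.7% in NPI:N0, and 32% and 36.3% in TPI:T0. Counts in a list that are near these shares are not a result about that list. The 17 mitochondrial synthetases were divided after Ag, with 6 higher and 9 lower in NAg:N0 and 9 higher and 5 lower in TAg:T0. Yars2 rose most in naive cells (log2 fold change 2.34 ± 0.12), and Cars2 fell most (-2.62 ± 0.12). Under PI 1 rose and 11 fell in naive cells, led by Rars2 (-2.16 ± 0.12) and Pars2 (-2.15 ± 0.21), and 2 rose and 12 fell in tolerized cells. The interaction for Ag was above 0 for 8 of the 17 and below 0 for 0, against 14.6% and 7.09% of all tested genes. A value above 0 can also be a smaller fall, as for Cars2, which fell less in tolerized cells (-1.59). The 3 scaffold genes of the multisynthetase complex all rose after Ag in both states, Eef1e1 by 3.11 ± 0.10, Aimp2 by 2.45 ± 0.11 and Aimp1 by 0.50 ± 0.12 in naive cells, and under PI 0 of 3 changed in naive cells and 1, Eef1e1, rose in tolerized cells (1.06 ± 0.11).

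Upstream of ATF4, 5 of 7 genes for eIF2α, its kinases and its phosphatase subunits were higher and 1 lower in NAg:N0. Eif2s1, which encodes eIF2α, rose by 2.29 ± 0.09, and Eif2ak3, for the kinase PERK, fell by 2.02 on the log2 scale. Under PI Eif2ak3 rose (1.48 ± 0.09), as did Ppp1r15a, the stress-induced phosphatase subunit (2.82 ± 0.28), with 4 of 7 higher and 2 lower. Of 26 other genes listed as ATF4 targets 22 were tested, with 10 higher and 3 lower in NAg:N0, 13 and 4 in TAg:T0, 12 and 1 in NPI:N0 and 12 and 3 in TPI:T0. Of all tested genes 32.1% were called higher and 33.4% lower in NAg:N0, and 29.9% and 29.8% in TAg:T0. Under PI the shares were 28.6% and 32.7% in NPI:N0, and 32% and 36.3% in TPI:T0. Bcat1, for branched-chain amino acid breakdown (7.73 ± 0.27), and the stress factor Atf3 (5.22 ± 0.33) rose most in NAg:N0, and Ddit4, an mTORC1 inhibitor (-2.74 ± 0.44), and Pck2 (-2.36 ± 0.30) fell most.

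Among 12 further folate and serine-glycine genes, 6 were higher and 4 lower in both NAg:N0 and TAg:T0. Of all tested genes 32.1% were called higher and 33.4% lower in NAg:N0, and 29.9% and 29.8% in TAg:T0. Shmt1, the cytosolic counterpart of Shmt2, rose by 6.20 ± 0.16 and Gcsh, of glycine cleavage, by 2.81 ± 0.13 in naive cells, while Amt, of the same glycine cleavage system, fell, from 15.0 ± 4.98 to 1.55 ± 0.69 normalized counts (SD, n = 3). Under PI 4 were higher and 6 lower in naive cells and 4 and 7 in tolerized cells. The shares of all tested genes were 28.6% and 32.7% in NPI:N0, and 32% and 36.3% in TPI:T0. Of 14 genes of the ATF6 and XBP1 arms of the ER stress response 11 were higher and 3 lower in NAg:N0, 10 and 2 in TAg:T0, and 9 and 3 in both NPI:N0 and TPI:T0. Hspa5, the main ER chaperone, rose by 2.38 ± 0.09 in NAg:N0 and 2.42 ± 0.09 in NPI:N0.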

How the data were processed

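The authors removed ribosomal RNA, sequenced paired-end libraries, aligned the reads to mm9 with TopHat2 2.1.1 and deposited raw counts per Ensembl gene from HTSeq 0.9.1, as the submitters' processing notes give them, which also name DESeq2 1.18 and edgeR 3.24. Replicates were not pooled. How strand and overlapping genes were counted is not given in the sources used here, and neither is whether replicates with equal numbers belong together.

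Symbols, exon lengths and overlaps came from NCBIM37 by Ensembl identifier. With R 4.3.3 and edgeR 4.0.16, genes with a mean normalized count of at least 3 in some group were kept, libraries were scaled by TMM, all 6 groups were fitted in one model, and contrasts were tested with the robust quasi-likelihood F test and Benjamini-Hochberg adjustment over all tested genes. Normalized counts are relative to the geometric mean library size. The 32 genes, the gene lists and the tests were chosen with earlier results of these data known. Library values are given for genes changed at least 2-fold in a comparison, up to the 4 largest rises and falls, and for the genes least like their role group. From other lists at most the 2 largest rises and falls are named, and some genes that this rule names are not reported here. Ratios of Chac1 have exact 95% counting intervals. The p-values rest on the spread among the 3 libraries within each group, pooled over all 6 groups and moderated across genes. Depth limits precision most for Asns, Chac1, Trib3 and Atf5.

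Alternatives were DESeq2 1.42.0, other scalings, no filter on low counts, only the groups compared, the replicate number as a block, marker scores, calls of at least 2-fold with a mean count above 50, each library left out and, chosen after seeing the data, Y-linked reads as a covariate. In simulated counts, 100 genes with a mean count of at least 50 were given a log2 rise of 1 in a single group. Another 100 such genes were given a rise of 2, and all other genes were equal in all groups. Of the genes with a rise of 1, the test recovered 89 in NAg:N0, 94 in T0:N0 and 91 in the Ag interaction. There were 7, 6 and 7 false calls in the respective simulations. In the real data many more genes change, in both directions, and some have lower counts, so these rates need not hold there.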

Additional observations from a re-analysis of the deposited data

Results flagged for a closer look

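The responses of tolerized and naive cells differed past the interaction test in 11 of the 32 genes for Ag and in 6 for PI. Over all tested genes 14.6% were called above 0 and 7.09% below for Ag, and 12.7% and 7.52% for PI, so that the 6 genes for PI are near the share of all genes. Each difference is the log2 response of tolerized cells minus that of naive cells. For Ag, 5 differences were above 0, namely Ddit3 (0.84), Phgdh (0.50), Dars (0.39), Mars (0.36) and Qars (0.34), and 6 were below 0, namely Sesn2 (-1.03), Mthfd2 (-0.69), Vars (-0.51), Yars (-0.41), Gars (-0.31) and Wars (-0.31). For PI, Psat1 (0.97), Eprs (0.66) and Rars (0.47) were above 0, and Asns (-1.83), Vars (-0.62) and Sesn2 (-0.53) below 0. The calls of Gars, Mars and Wars for Ag and of Asns and Sesn2 for PI were lost when single libraries were left out. No cause of these differences was tested. Groups of 3 libraries are too small for the check of single samples that stand apart.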

How the results depend on the processing

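The numbers of genes called higher after Ag did not move when any library was left out, at 28 in NAg:N0 and 27 in TAg:T0. The same held for 7 lower in NPI:N0, 24 lower in NPI:NAg and 5 higher in TPI:TAg. Lower calls in NAg:N0 ranged from 3 to 4. Of 233 called results of single genes, 169 kept their call with the erythroid and myeloid marker scores in the model (62 lost it and 2 reversed), 190 with scaling by total counts (30 and 13), 215 with upper-quartile scaling, 217 with the Y-linked covariate, 221 with only the groups compared, 225 without the filter on low counts, 225 with DESeq2 and 227 with DESeq2 size factors. Scaling by total counts gave 4 lower calls in TAg:T0, 6 higher and 17 lower in NPI:N0, 9 higher and 18 lower in TPI:T0, 4 lower in T0:N0, 9 lower in TAg:NAg, 14 lower in TPI:NPI and 10 below 0 in the PI interaction, and it turned the log2 fold changes of Sars (-0.0014) and Phgdh (-0.0589) in NAg:N0, Qars (-0.19) in TAg:T0, Aars (-0.13), Gars (-0.38), Nars (-0.13) and Atf5 (-0.0222) in NPI:N0, and Aars (-0.35), Farsa (-0.61), Iars (-0.44), Nars (-0.0949), Qars (-0.64), Tars (-0.0891) and Shmt2 (-0.54) in TPI:T0. The group medians became -0.0264 (T0), 1.37 (NAg), 1.22 (TAg), -0.45 (NPI) and -0.68 (TPI) for synthetases, 0.71, 0.36, 1.23 and 0.82 (NAg to TPI) for regulators and 0.15, 2.14, 2.01, -0.24 and -0.24 for enzymes. With upper-quartile scaling those that moved became 1.94 (NAg), 0.28 (NPI) and 0.20 (TPI) for synthetases, 1.27, 1.96 and 1.70 for regulators and 0.49 (NPI) and 0.64 (TPI) for enzymes, and with DESeq2 size factors 0.16 and 1.84 (synthetases and regulators in NPI) and 0.50 (enzymes in TPI). Upper-quartile scaling gave 2 lower in TAg:T0, 5 lower in T0:N0, 1 higher in TAg:NAg and 1 above and 15 below 0 in the Ag interaction. Marker scores gave 10 higher in NPI:N0, 11 higher in TPI:T0, 0 higher and 0 lower in T0:N0, 0 higher and 7 lower in TAg:NAg, 1 lower in TPI:NPI, 3 higher in NPI:NAg, 3 higher in TPI:TAg and 3 above 0 in the Ag interaction, and turned Atf5 in NPI:N0 (-0.0103) and Asns in TPI:TAg (0.97). Because neutrophil markers separated T from N, calls lost between the states in this fit cannot be assigned to these cells or to the state. Calls of at least 2-fold numbered 3 higher and 2 lower in NPI:N0, 8 and 2 in TPI:T0, 0 and 0 in T0:N0, 1 and 0 in TAg:NAg, 1 and 0 in TPI:NPI, 3 higher in NPI:NAg and 3 higher in TPI:TAg. With only the groups compared, there were 5 lower in T0:N0, 3 higher in TAg:NAg and 7 below 0 in the PI interaction. The Y-linked covariate left 2 lower in T0:N0, and DESeq2 gave 10 below 0 in the Ag interaction. Leaving out single libraries gave 1 to 2 lower in TAg:T0, 5 to 13 lower in T0:N0, 1 to 5 higher in TAg:NAg, and 3 to 6 above and 1 to 5 below 0 in the PI interaction, and -0.2817 to 0.0080 for Ddit3 in TAg:T0. With the replicate number as a block 230 of 233 were kept and 3 (Farsa and Ddit3 in T0:N0 and Wars in the Ag interaction) were not called. Correlations between samples of equal number varied in sign between comparisons. In T0:N0 they were 0.18, 0.01 and 0.11, against a mean of -0.05 for unlike numbers. In TPI:NPI they were 0.24, 0.09 and -0.01, against -0.05. In TAg:T0 they were -0.17, -0.25 and -0.49, against 0.14. The labels do not say that equal numbers belong together, so the numbers are not taken as pairs. The causes were not tested.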

Other observations

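In the lists of related genes, tolerized and naive cells also differed after stimulation. Of the 14 genes of the ATF6 and XBP1 arms, 8 were higher and 3 lower in TAg than in NAg, where 20.9% of all tested genes were called higher and 18.5% lower. Sdf2l1 had 246 ± 7.54 normalized counts (SD, n = 3) in TAg and 114 ± 4.42 in NAg, and Pdia4, a disulfide isomerase of the ER, 1088 ± 120 and 517 ± 64.9, while Dnajb9, a cochaperone of Hspa5, was lower, at 559 ± 48.8 against 1353 ± 108. The interaction for Ag was above 0 for 6 of these 14 genes and below 0 for 2, against 14.6% and 7.09% of all tested genes. The largest differences were those of Dnajc3 (1.37 ± 0.13 on the log2 scale) and Atf6 (-1.30 ± 0.15). Dnajc3 fell less in tolerized cells (log2 fold change -0.74) than in naive cells (-2.11), and Atf6 rose less (1.23 against 2.53). Of the 17 mitochondrial synthetases 7 were higher and 2 lower in TAg than in NAg, against the same shares of all genes as above, with Cars2 among the higher (log2 fold change 0.91 ± 0.12). These differences stand beside the neutrophil markers, all higher in TAg, whose part in them was not tested.

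Under PI, Gldc, which encodes the decarboxylase of the glycine cleavage system, had 7.28 ± 1.35 normalized counts in NPI and 123 ± 42.7 in TPI (log2 fold change 4.07 ± 0.36, adjusted p = 5.52e-09 in edgeR's quasi-likelihood test). Shmt1 was higher in TPI as well, at 687 ± 106 against 269 ± 49.1, and Gcsh, for another protein of glycine cleavage, was lower (log2 fold change -1.12 ± 0.11).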
